A study of Mus musculus with 6 samples.

Results

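The 10 genes described here encode secreted or cell-surface cytokines: Il1a, Il1b, Il18, Il6, Osm, Tnf, Ltb, Tgfb1, Csf1 and Csf2. They were chosen by name, with earlier results of these data known. All 10 had a probe set annotated to 1 gene symbol, among 22180 genes measured in that way. The RNA came from LSK cells, the lineage-negative, Sca1-positive and cKit-positive part of the bone marrow in which hematopoietic stem cells and multipotent progenitors are found. One group, Tifab_WT, had marrow labelled TIFAB+/+ (WT), and the other, Tifab_KO, had marrow labelled TIFAB-/- (KO). Each group had 3 samples on 1 Affymetrix MoGene 2.0 ST array each. In both groups the marrow had been placed in syngeneic Boy/J recipients after irradiation with 7 and 4.75 Gy given 3 hours apart, and the labels give 3 months which may be an age or the time since transplantation. The labels name no donor marker in the sort, so remaining recipient cells in the samples cannot be told apart from donor cells. The labels state 3 mice per group, and the p-values below measure the spread between these samples.

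Cytokines carry signals between blood cells and act on stem cells during infection and regeneration. Interleukin-1, tumor necrosis factor and Toll-like receptors signal through adaptor proteins, among them TRAF6, to the transcription factor NF-kB, and NF-kB in turn drives transcription of several cytokine genes, Il1b, Tnf, Il6 and Ltb among them. Tifab encodes a relative of the TRAF6-binding adaptor TIFA, and the title of the series places its loss in Toll-like receptor and TRAF6 signalling. The comparison asked which of these cytokine genes LSK cells express and whether their levels differ between the genotypes.

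Tifab itself gave no check of the genotype labels. Its probe set read 4.99, 5.37 and 5.53 on the Tifab_WT arrays and 5.21, 5.12 and 5.26 on the Tifab_KO arrays (log2 values, replicates 1 to 3), so the groups overlapped. The place of these probes relative to the deletion was not analysed here, and each direction below rests on the labels. All 12 measured stem and progenitor markers, Kit, Cd34 and Flt3 among them, lay above the array floor defined next; Ly6a, the gene of Sca1, had no probe set of its own and was not analysed here. Among markers of other cells, all 12 of mature neutrophils, 8 of 13 of monocytes and macrophages, 7 of 9 of B and plasma cells, 6 of 10 of mast cells, basophils and eosinophils, 4 of 12 of T and NK cells and 4 of 10 of stroma and endothelium also lay above it.

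The array floor was set from 1394 olfactory and vomeronasal receptor genes, which sensory neurons use and bone marrow cells are not known to need. The 95th percentile of their mean log2 values over the 6 arrays was 4.12, and 55.2% of all genes lay above it. By this measure 7 of the 10 cytokine genes were above the floor (Il1b, Il18, Osm, Tnf, Ltb, Tgfb1 and Csf1) and 3 were not (Il1a, Il6 and Csf2). Csf1, with a mean of 4.25, was the nearest gene inside the limit, and Csf2, with a mean of 3.55, the nearest outside. With the 99th percentile of the receptor genes, 5.20, as the limit, 5 genes remained: Il18, Osm, Tnf, Ltb and Tgfb1. The same 5 were above the floor of their own array on all 6 arrays. Values of different probe sets depend on the probes, so no order of abundance among the 10 genes is read from them.

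**Figure D1:**
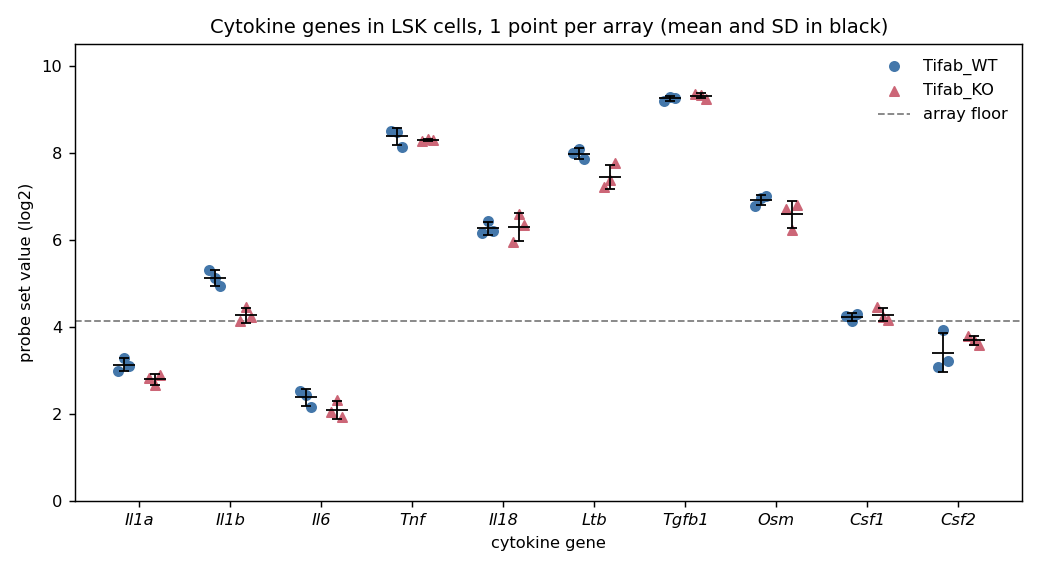
Log2 probe set values of the 10 cytokine genes (horizontal axis) on the 3 Tifab_WT arrays (circles) and the 3 Tifab_KO arrays (triangles), with group mean and SD in black and the array floor of 4.12 as a dashed line. The groups do not overlap for Il1a, Il1b and Ltb, all lower in Tifab_KO, and Il1a lies below the floor on each array.

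Among the 10 genes, Il1b and Ltb were above the floor and lower in all 3 Tifab_KO samples than in any Tifab_WT sample. Il1b was at 0.554 of the Tifab_WT level and Ltb at 0.690. The Tifab_KO values of Il1b lay close to the array floor, so its ratio is taken against values near background. Tnf, Il18, Tgfb1 and Csf1, also above the floor, had intervals that included 0 and group means within 0.09 of each other on the log2 scale. No cytokine gene passed the threshold of an adjusted p of 0.05 in limma, nor did any other of the 22180 genes (0% called), while 2274 genes (10.3%) had an unadjusted p under 0.05. In bulk samples such as these, fewer cells of a type and less RNA per cell cannot be told apart.

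The stretches before the transcription start of Il1b and Ltb are shown because these genes carried the larger differences, and that of Tnf because Tnf is the next protein-coding gene to Ltb. Each is the 250 bases before the start, 5′ to 3′ on the gene's strand, from RefSeq in build GRCm38.p6: Il1b at chr2:129371140-129371389 on the minus strand, Ltb at chr17:35194257-35194506 on the plus strand and Tnf at chr17:35202008-35202257 on the minus strand. Capitals mark the letters TATAAA or a match to the NF-kB consensus, searched on both strands; no matches of these motifs overlapped in the sequences printed.
Il1b: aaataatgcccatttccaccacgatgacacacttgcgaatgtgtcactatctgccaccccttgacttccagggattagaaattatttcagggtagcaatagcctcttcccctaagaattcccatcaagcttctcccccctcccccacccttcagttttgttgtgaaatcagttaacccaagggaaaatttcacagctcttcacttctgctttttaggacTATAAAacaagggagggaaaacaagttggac
Ltb: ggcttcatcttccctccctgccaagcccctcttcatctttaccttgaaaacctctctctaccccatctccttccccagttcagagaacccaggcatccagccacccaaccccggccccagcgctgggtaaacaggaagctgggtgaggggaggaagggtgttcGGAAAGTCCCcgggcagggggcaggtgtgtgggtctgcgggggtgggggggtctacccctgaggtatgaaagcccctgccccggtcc
Tnf: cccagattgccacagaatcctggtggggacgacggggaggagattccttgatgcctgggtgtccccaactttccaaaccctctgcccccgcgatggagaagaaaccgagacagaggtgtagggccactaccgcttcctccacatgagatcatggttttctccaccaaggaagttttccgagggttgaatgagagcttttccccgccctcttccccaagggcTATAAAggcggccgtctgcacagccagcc
TATAAA began 31 bases before the start in Il1b and 29 bases before it in Tnf. It occurred somewhere in the same window of 4 of the 9 cytokine genes with a sequence and in 12.4% of 32851 promoters. Ltb held the NF-kB consensus from 87 to 78 bases before the start. This consensus occurred in 4 of the 9 cytokine genes, Ltb, Il6, Tgfb1 and Csf1, and in 7.25% of all promoters. It was not in the windows of Il1b and Tnf, which says only that these letters are not in 250 bases. Among the 4 genes with the consensus, the values below were lower in all Tifab_KO samples only for Ltb.

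Among the interleukin-1 family, Il1b encodes interleukin-1 beta, made as an inactive precursor and cut by caspase-1. Its log2 values were 5.30, 5.12 and 4.93 in Tifab_WT and 4.13, 4.46 and 4.21 in Tifab_KO. Every Tifab_KO value was below every Tifab_WT value, with a gap of 0.472 on this scale, and the Tifab_KO values lay close to the floors of their own arrays, 4.15, 4.12 and 4.14, with replicate 1 below its floor. The means were 5.12 ± 0.18 (SD, n = 3) and 4.27 ± 0.18 (SD, n = 3). The log2 fold change was -0.85 ± 0.17 (SE), with a 95% interval from -1.24 to -0.47. In limma its unadjusted p of 0.000689 ranked 46 of 22180, and its adjusted p was 0.297. Leaving out any single array gave -0.95 to -0.76.

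Il1a, the gene of interleukin-1 alpha, lies next to Il1b in the order of protein-coding genes. Its probe set read 2.99, 3.29 and 3.09 in Tifab_WT and 2.82, 2.65 and 2.90 in Tifab_KO, all below the floor. The groups did not overlap, and the log2 fold change was -0.34 ± 0.15 (SE), with an unadjusted p of 0.0475 and an adjusted p of 0.484 in limma. The unadjusted p stayed under 0.05 in 1 of 6 fits with an array left out, that without Tifab_WT replicate 1. The log2 fold change was -0.25 without Tifab_WT replicate 2 and -0.27 without Tifab_KO replicate 2.

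Il18 encodes interleukin-18, a further caspase-1 substrate. It read 6.16, 6.43 and 6.20 in Tifab_WT and 5.94, 6.58 and 6.34 in Tifab_KO. The Tifab_KO values spanned the Tifab_WT values on both sides, and the log2 fold change was 0.02 ± 0.19 (SE; limma adjusted p = 0.978), with a 95% interval from -0.41 to 0.46.

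Of the tumor necrosis factor family, Ltb and Tnf differed in pattern. Ltb encodes lymphotoxin beta, which holds lymphotoxin at the cell surface and signals through the lymphotoxin beta receptor. Its log2 values were 8.0, 8.10 and 7.85 in Tifab_WT and 7.21, 7.37 and 7.75 in Tifab_KO. The highest Tifab_KO sample, replicate 3, lay 0.0936 below the lowest Tifab_WT sample, and the other 2 lay further down. The means were 7.98 ± 0.13 (SD, n = 3) and 7.45 ± 0.28 (SD, n = 3). The log2 fold change was -0.53 ± 0.17 (SE), with a 95% interval from -0.91 to -0.16, an unadjusted p of 0.00975 and an adjusted p of 0.362 in limma. Without Tifab_KO replicate 3 it was -0.69, and without Tifab_KO replicate 1 it was -0.42.

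Tnf, the gene of tumor necrosis factor, read 8.51, 8.48 and 8.14 in Tifab_WT and 8.27, 8.31 and 8.28 in Tifab_KO. The 3 Tifab_KO samples lay between the lowest and the middle Tifab_WT sample. The log2 fold change was -0.09 ± 0.13 (SE; limma adjusted p = 0.860), with a 95% interval from -0.39 to 0.21. In gene order Ltb, Tnf and Lta follow one another. Lta, the gene of lymphotoxin alpha, which pairs with lymphotoxin beta, is named after its values were seen: it was not above the floor, at a mean of 3.90 in Tifab_WT and 4.0 in Tifab_KO. The differences between Ltb and its neighbours were not tested.

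Il6 and Osm encode cytokines of the gp130 family. Il6 was far below the floor at 2.53, 2.44 and 2.16 in Tifab_WT and 2.05, 2.32 and 1.92 in Tifab_KO. The groups overlapped, and the log2 fold change was -0.28 ± 0.16 (SE; limma adjusted p = 0.564). It was -0.12 after quantile normalization and -0.13 after cyclic loess. Osm, the gene of oncostatin M, read 6.77, 6.97 and 7.00 in Tifab_WT and 6.72, 6.23 and 6.80 in Tifab_KO. The Tifab_KO mean was lower, with replicate 2 apart from the other samples and replicate 3 above the lowest Tifab_WT sample. Its log2 fold change was -0.33 ± 0.18 (SE; unadjusted p = 0.10, limma adjusted p = 0.557), or -0.16 without Tifab_KO replicate 2. Lif, the leukemia inhibitory factor gene and the next protein-coding gene to Osm, is named after its values were seen and had -0.34 ± 0.17 (SE; limma adjusted p = 0.529).

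Tgfb1 encodes transforming growth factor beta 1, which holds stem cells in quiescence. It varied least among the 7 genes above the floor in its pooled error: 9.20, 9.29 and 9.25 in Tifab_WT and 9.35, 9.34 and 9.24 in Tifab_KO. The groups overlapped, and the log2 fold change of 0.06 ± 0.10 (SE; limma adjusted p = 0.867) had a 95% interval from -0.16 to 0.28. After quantile normalization the value was -0.002 and after cyclic loess -0.006.

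The colony-stimulating factors lay near or below the floor. Csf1, the growth factor of macrophages, read 4.25, 4.12 and 4.30 in Tifab_WT and 4.45, 4.22 and 4.15 in Tifab_KO, with overlapping groups and a log2 fold change of 0.05 ± 0.16 (SE; limma adjusted p = 0.933). Csf2, which encodes GM-CSF, had a pair of probe sets. The one with the higher mean read 3.08, 3.93 and 3.21 in Tifab_WT and 3.78, 3.69 and 3.59 in Tifab_KO. Tifab_WT replicate 2 was the highest of the 6 samples and the remaining Tifab_WT samples were the lowest. The log2 fold change was 0.28 ± 0.22 (SE; limma adjusted p = 0.683). Without Tifab_WT replicate 2 it was 0.54, with an unadjusted p of 0.00976. The mean of both probe sets gave -0.01, so the sign of Csf2 depended on the probe set.

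**Figure D2:**
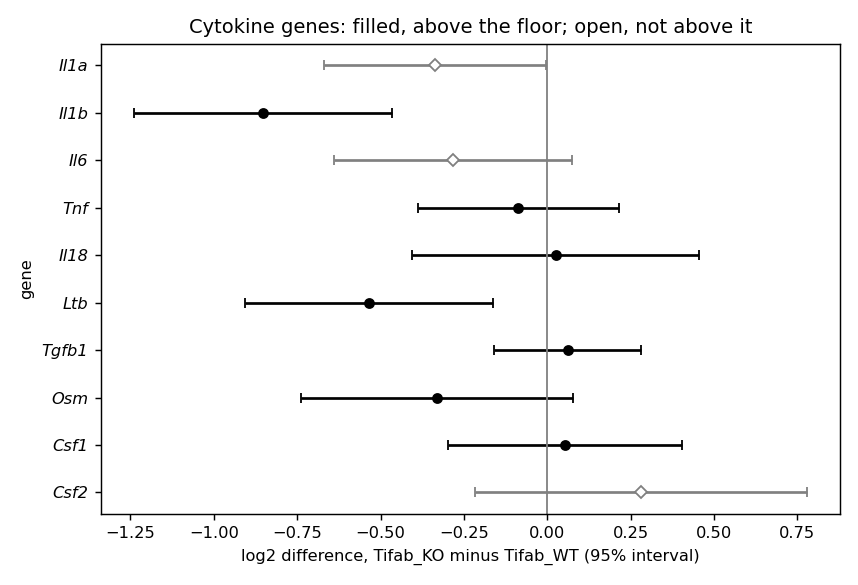
Log2 difference between Tifab_KO and Tifab_WT (horizontal axis) with its 95% interval for each cytokine gene; filled circles are genes above the floor and open diamonds are genes not above it. The intervals of Il1b, Ltb and Il1a exclude 0, and that of Il1a ends at -0.005.

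Counted together, 3 of the 10 cytokine genes (Il1a, Il1b and Ltb) had an unadjusted p under 0.05 in limma and were lower in Tifab_KO, against 5.51% of all genes in that direction. None was higher, against 4.74% of all genes. The 10 genes were chosen with earlier results of these data known, so these counts do not test them as a set. The background split of 1052 genes higher and 1222 lower became 1190 and 848 after quantile normalization and 1033 and 993 after cyclic loess, with 2 cytokine genes lower, Il1b and Ltb, in both. The same 3 genes were those whose groups did not overlap, against 16.1% of all genes in either direction and 8.37% in the lower one. By sign, 4 of the 10 were higher and 6 lower, and their median difference was -0.19 on the log2 scale, beside 0.00 over all genes. Among the 7 genes above the floor, 4 were lower and the median was -0.09, beside 0.03 over the 12241 genes above the floor.

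Fold changes moved with signal, which touches the genes below the floor. Among genes not above the floor 57.5% were lower in Tifab_KO and 7.98% had an unadjusted p under 0.05 in the lower direction, while 3.5% of genes above the floor did. The receptor genes that defined the floor had a median log2 fold change of -0.18, with 78.8% of them lower and 19.6% past the unadjusted p in that direction. Il1a at -0.34 and Il6 at -0.28 lay in this range of signal, where the 5th percentile of all genes was -0.47 near Il1a and -0.56 near Il6. Il1b at -0.85 and Ltb at -0.53 lay below the 5th percentile of genes of similar signal, which was -0.38 near Il1b and -0.36 to -0.30 near Ltb. The part of the signal-dependent shift in the values of Il1a and Il6 was not tested beyond the normalizations given here. After cyclic loess, which levels such a shift, the receptor genes had a median of -0.04, Il1a had -0.28 with an unadjusted p above 0.05 in limma, Il1b -0.89 and Ltb -0.58.

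**Figure D3:**
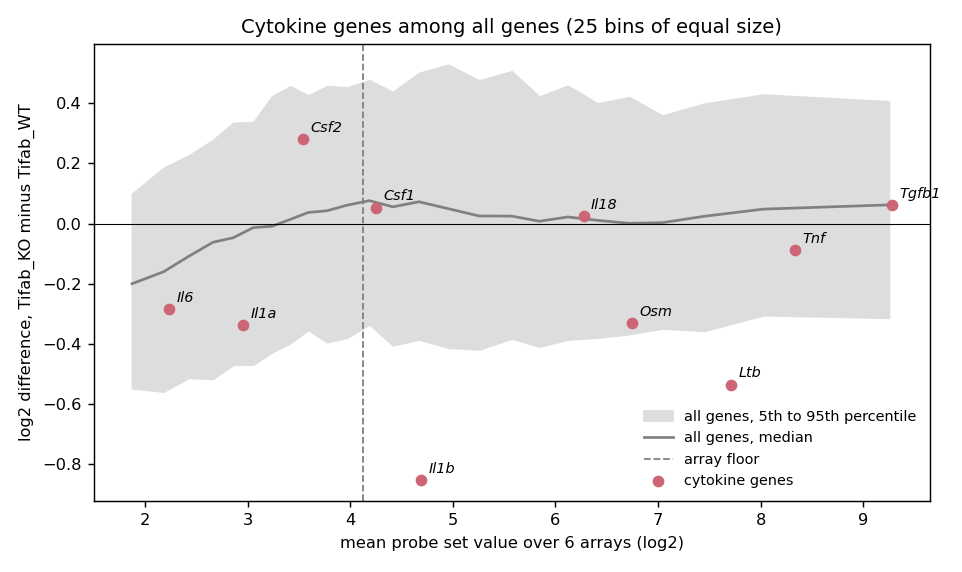
Log2 difference between Tifab_KO and Tifab_WT (vertical axis) against the mean log2 value over 6 arrays (horizontal axis). The grey line and band give the median and the 5th to 95th percentile of all genes in bins of equal size, and points are cytokine genes. Il1b and Ltb lie below the band, while the other 8 lie within it.

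Il1b and other cytokine genes are also products of mature myeloid cells, so the marker lists of such cells are given beside them. The mean log2 value over the 12 neutrophil markers was 7.77 to 7.97 in Tifab_WT and 7.55 to 7.81 in Tifab_KO, with 9 of 12 lower. With an unadjusted p under 0.05 in limma, 2 of the 12 were lower and 0 higher, against 5.51% and 4.74% of all genes. The 2 were Mmp8, a collagenase gene, at -0.85 ± 0.24 (SE), and Il1r2, whose Tifab_KO values of 3.58, 3.74 and 3.90 all lay below the floors of their arrays. The 3 higher markers were Camp at 0.33, Csf3r at 0.26 and Cxcr2 at 0.03. Over the 13 monocyte and macrophage markers the mean log2 value was 4.96 to 5.19 in Tifab_WT and 5.04 to 5.15 in Tifab_KO, with 6 lower and 7 higher. With an unadjusted p under 0.05 in limma, 1 was higher and 2 lower, against 4.74% and 5.51% of all genes. These were C1qa at 0.52, and C1qb at -0.51 and Vcam1. Csf1r, Cd68, Ccr2, Lyz2, C1qa, C1qb, Vcam1 and Cd163 were above the floor, and Adgre1, Fcgr1, Mrc1, Cd14 and C1qc were not. Vcam1, an adhesion molecule gene that stromal and endothelial cells also use, read 5.59, 5.12 and 4.85 in Tifab_WT and 4.31, 4.75 and 4.26 in Tifab_KO, with no overlap and a difference of -0.74 ± 0.23 (SE; limma adjusted p = 0.356). The mast cell, basophil and eosinophil markers had 8 of 10 lower, with means of 5.13 to 5.45 in Tifab_WT and 4.62 to 5.26 in Tifab_KO. The 4 not above the floor were all lower, as were 57.5% of all genes not above it. The 6 above the floor had a median difference of -0.01. Among these 6, Mcpt8 at 0.26 and Siglecf at 0.23 were higher, and Cpa3 had -0.02 and Prss34 -0.01. In this list 4 of 10 were lower with an unadjusted p under 0.05, against 5.51% of all genes: Prg2 at -1.75 and Epx at -0.89, with overlapping groups, and Ccr3 at -0.97 and Ms4a2 at -0.57, with no overlap but not above the floor. For Ltb, which lymphoid cells express, the B and plasma cell markers were at 5.26 to 6.11 in Tifab_WT and 5.45 to 6.03 in Tifab_KO. Of these, 7 of 9 were higher in Tifab_KO. The T and NK markers were at 3.71 to 4.02 and 3.84 to 3.95, with 7 of 12 higher. No marker of these lymphoid lists had an unadjusted p under 0.05 in limma. The part of such cells in the values of Il1b and Ltb was not tested.

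The receptor chains listed for the 10 cytokines did not shift together. Of 18 receptor chains, 15 lay above the floor, 7 were lower and 11 higher, and their median difference was 0.03 on the log2 scale. One chain in each direction had an unadjusted p under 0.05 in limma. The share of all genes was 4.74% in the higher and 5.51% in the lower direction, and that of genes above the floor 5.77% and 3.5%. Of the chains, 0 reached an adjusted p of 0.05. Il18r1, the ligand-binding chain for interleukin-18, read 5.25, 5.28 and 5.26 in Tifab_WT and 4.71, 5.03 and 4.72 in Tifab_KO. The groups were apart, with a log2 fold change of -0.45 ± 0.16 (SE; limma adjusted p = 0.405). The unadjusted p rose above 0.05 without Tifab_KO replicate 1 (-0.39) or replicate 3 (-0.40). Its partner Il18rap had -0.24 ± 0.18 (SE). The chain called higher, Csf2rb2, is the beta chain of the interleukin-3 receptor in mice, and interleukin-3 is not among the 10 cytokines. Csf2rb2 read 3.89, 4.61 and 4.82 in Tifab_WT and 5.43, 5.66 and 4.59 in Tifab_KO. The groups overlapped through Tifab_KO replicate 3, and the log2 fold change was 0.79 ± 0.32 (SE; limma adjusted p = 0.456). It ranged from 0.51 to 1.11 with an array left out, and the unadjusted p was above 0.05 without Tifab_WT replicate 1 (0.51), Tifab_KO replicate 1 (0.69) or Tifab_KO replicate 2 (0.57).

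The other receptor chains are given by ligand, and the interleukin-1 decoy receptor Il1r2 is described with the antagonists. Il1r1, the signalling receptor for both interleukin-1 forms, had -0.14 ± 0.25 (SE), and its accessory chain Il1rap, not above the floor, had -0.03. Ltbr, the lymphotoxin beta receptor, had 0.05 ± 0.14 (SE). The tumor necrosis factor receptors Tnfrsf1a and Tnfrsf1b had 0.28 ± 0.17 (SE) and -0.09 ± 0.14 (SE). Il6ra and the shared gp130 chain Il6st had 0.35 ± 0.20 (SE) and 0.38 ± 0.29 (SE), while Osmr and Lifr were not above the floor and had 0.02 and 0.09. The receptors Tgfbr1, Tgfbr2 and Tgfbr3 had 0.10, 0.02 and 0.08. Csf1r had 0.24 ± 0.16 (SE), Csf2ra -0.25 ± 0.20 (SE) and Csf2rb -0.01 ± 0.17 (SE). The 95% intervals of the 16 chains other than Il18r1 and Csf2rb2 included 0.

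**Figure D4:**
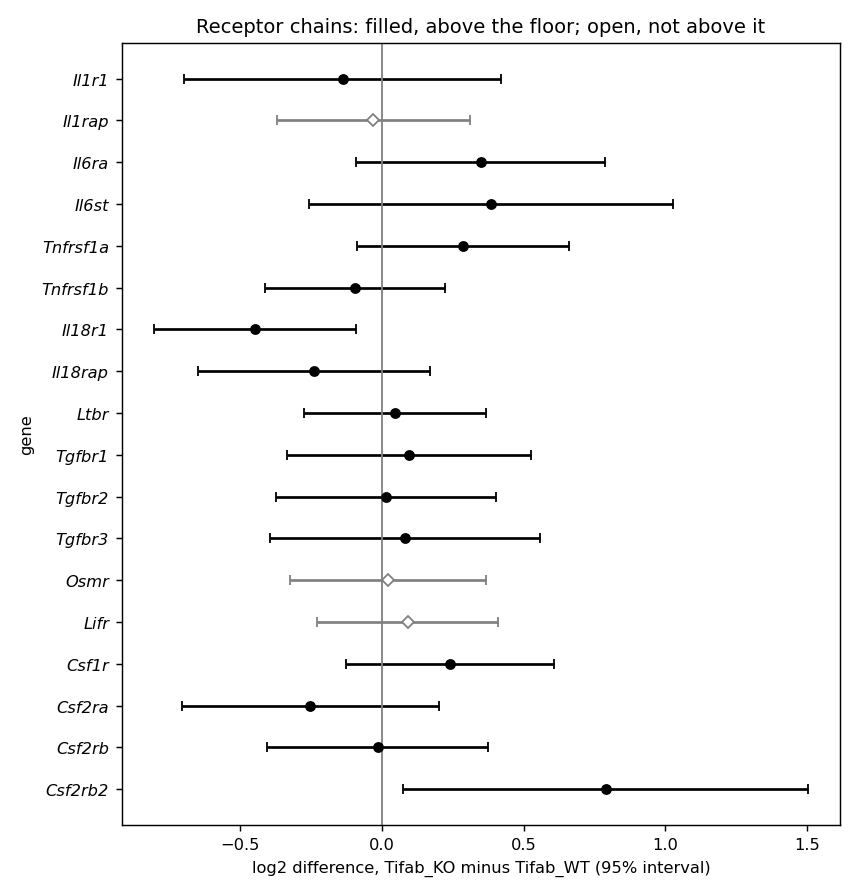
Log2 difference between Tifab_KO and Tifab_WT (horizontal axis) with its 95% interval for the 18 receptor chains; filled circles are above the floor and open diamonds are not. The intervals of Il18r1 (-0.45) and of the interleukin-3 receptor chain Csf2rb2 (0.79) exclude 0, in opposite directions.

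Genes that mature, release, block or degrade these cytokines or their mRNAs were counted from lists. Of 23 genes of maturation and release, 10 were higher and 13 lower (median -0.01), and 3 of the 23 had an unadjusted p under 0.05 in limma, against 10.3% of all genes. Casp1, the caspase that cuts interleukin-1 beta and interleukin-18, was on the higher side at 6.89 ± 0.14 against 7.22 ± 0.11 (SD, n = 3 each), a log2 fold change of 0.33 ± 0.14 (SE; limma adjusted p = 0.487), so its sign was opposite to that of Il1b. Ninj1, which encodes a protein of membrane rupture in dying cells, had -0.41 ± 0.17 (SE). Furin, a protease that cuts the precursor of transforming growth factor beta, had -0.40 ± 0.17 (SE), with overlapping groups. With an array left out, the unadjusted p stayed under 0.05 in 1 of 6 fits for Casp1 and in 2 of 6 for Ninj1 and Furin.

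Of 9 antagonists and decoys, 7 were higher and 2 lower, and these 2 had the larger differences. Il1r2, the decoy receptor for interleukin-1 and a neutrophil marker above, read 6.09, 4.64 and 4.48 in Tifab_WT and 3.58, 3.74 and 3.90 in Tifab_KO. The groups did not overlap, and Tifab_WT replicate 1 stood well above the other samples. All 3 Tifab_KO values were below the floors of their own arrays, so Il1r2 was measured above background in Tifab_WT only, and counted as above the floor through that group. Its fitted log2 difference, taken against values at background, was -1.33 ± 0.37 (SE; limma adjusted p = 0.344), or -0.82 without Tifab_WT replicate 1. Smad7, an inhibitor of transforming growth factor beta receptors, read 8.39, 7.76 and 7.90 in Tifab_WT and 7.70, 7.17 and 7.48 in Tifab_KO. The groups lay 0.0646 apart, with a log2 fold change of -0.57 ± 0.20 (SE; limma adjusted p = 0.397), while Tgfb1 had 0.06.

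All 15 measured genes of cytokine mRNA turnover, which hold tristetraprolin, Regnase-1 and Roquin among their products, were above the floor, 8 of them higher and 7 lower (median 0.00). Hnrnpd, an AU-rich element binding protein, had 0.32 ± 0.10 (SE; unadjusted p = 0.0131, limma adjusted p = 0.382), and 0.04 with the mean of its probe sets.

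Other cytokine genes gave a comparison for the 10. Of 50 measured, 18 lay above the floor, which is 36% against 70% of the 10 genes described. Both lists were chosen with earlier results of these data known, so nothing is concluded from this contrast. They split into 26 higher and 24 lower (median 0.01), and 3 higher and 1 lower had an unadjusted p under 0.05 in limma, against 4.74% and 5.51% of all genes. Il27, the p28 subunit of interleukin-27, was above the floor at 6.03, 5.92 and 6.06 in Tifab_WT and 6.14, 6.41 and 6.55 in Tifab_KO, a difference of 0.36 ± 0.16 (SE; limma adjusted p = 0.487). Il2, Il19 and Il24, at -0.45, 0.33 and 0.48, were not above the floor. The groups did not overlap for 8 of the 50, against 16.1% of all genes.

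The genes above the floor with profiles nearest to each of the 3 differing cytokine genes were found by the root mean square difference of gene-centred log2 values over 6 arrays. For Il1b these were Ptgr1, a reductase of prostaglandin and leukotriene metabolism (0.102), the microRNA gene Mir466h (0.125) and Cgref1 (0.128), against a root mean square of 0.451 of Il1b around its own mean. For Ltb they were Dtx3 (0.0482), Zfp747 (0.0519) and Flot2 (0.0719), and for Il1a Lim2 (0.0345), Nrg4 (0.0387) and Cks1b (0.0543). The search covered 12241 genes for cytokine genes picked by their difference, so near profiles that are lower in Tifab_KO follow from the selection. Il1a itself lay below the floor on each array. Shared regulation was not tested.

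**Figure D5:**
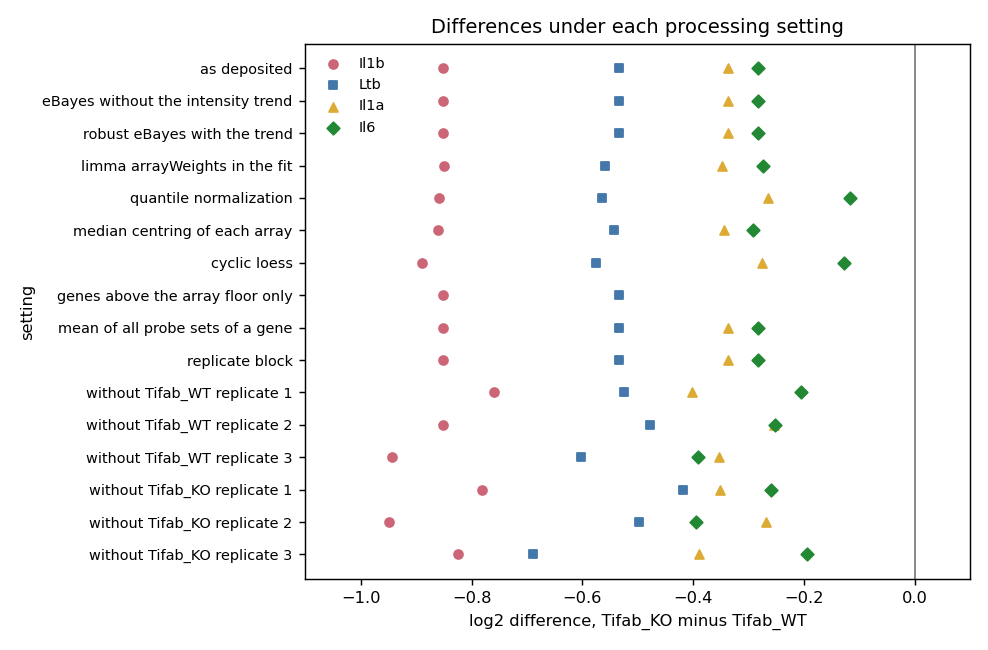
Log2 difference between Tifab_KO and Tifab_WT (horizontal axis) of Il1b, Ltb, Il1a and Il6 as deposited and under each alternative (vertical axis). Il1b stays between -0.95 and -0.76 and Ltb between -0.69 and -0.42, and Il1a and Il6 have no point where genes below the floor were left out.

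Across the 15 alternatives, the log2 fold change of Il1b lay between -0.95 and -0.76 and that of Ltb between -0.69 and -0.42, and both had an unadjusted p under 0.05 in each of the 15. Their lowest adjusted p over these alternatives was 0.195 for Il1b and 0.285 for Ltb, and the highest 0.645 and 0.678. Il1a had an unadjusted p under 0.05 in 6 of 14 alternatives and Il6 in 2 of 14.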

How the data were processed

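LSK RNA of 6 samples was hybridised to 1 array each. The authors deposited log2 probe set values, 41345 by 6, from Affymetrix Expression Console per the submitters' processing notes, with background correction, summary and normalization not given in the sources used here. Array medians lay between 4.05 and 4.10, and no further normalization was applied in the main fit. Close medians do not exclude the shift with signal described above. Probe sets were named by the platform annotation: 23521 had 1 symbol, 1814 several and 16010 none listed. The probe set with the highest mean stood for a gene. The number of arrays limits precision.

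Tifab_KO was compared with Tifab_WT in limma 3.58.1 (R 4.3.3; lmFit and eBayes with an intensity trend; two-sided; genotype as single term). P-values were adjusted by Benjamini-Hochberg over 22180 genes, with a threshold of 0.05. The code was tested on simulated data. The cytokine genes and lists were chosen with earlier results of these data known. Named were all 10 cytokine genes, list genes with an unadjusted p under 0.05, all receptor chains and the 3 nearest profiles per differing cytokine gene. Tifab, Lif, Lta and the C1q genes were added after their values were seen. So were the marker genes given values without an unadjusted p under 0.05. List genes without their own probe set were not analysed here. Alternatives covered the moderation, array weights, normalization, floor, probe sets, replicate number as a block and each array left out. Promoter windows came from RefSeq for 9 of the 10 genes.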

Additional observations from a re-analysis of the deposited data

How the results depend on the processing

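No gene passed the adjusted threshold in any of the 9 alternatives that kept all arrays; with an array left out the count was 0 to 1, which was Prg2 (lower, limma adjusted p = 0.0177) without Tifab_KO replicate 2 and the immunoglobulin light chain gene Iglv1 (higher, limma adjusted p = 0.0133; singled out after its value was seen) without Tifab_WT replicate 3. Genes above the floor alone gave 693 genes higher and 423 genes lower with the unadjusted p below 0.05. In the main fit these genes had given 706 higher and 429 lower. The genes not above the floor had given 346 higher and 793 lower there. Cytokine genes higher at that p numbered 0 to 1 with an array left out (Csf2, without Tifab_WT replicate 2); those lower numbered 2 or 3 throughout, with Il6 in place of Il1a without Tifab_WT replicate 3 or Tifab_KO replicate 2. Same-numbered arrays did not deviate together (r of 0.02, -0.03 and -0.09 across genes). With 3 arrays per group, these values cannot show whether same-numbered samples were handled together. With the replicate number as a block, Il1b had an unadjusted p of 0.00193, Ltb 0.0189 and Il1a 0.0792 in limma. In that fit 2 cytokine genes were lower with an unadjusted p under 0.05, and no gene passed the adjusted threshold.

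Of the 62 named genes followed over the alternatives, 13 changed sign somewhere, and the cause was not tested. In the main fit the largest value among them was that of Csf2, at 0.28. Il18 had -0.0145 with array weights and -0.12 to 0.20 with an array left out. Tgfb1 had -0.00189 with quantile normalization and -0.00555 with cyclic loess. Csf2 had -0.00987 with the mean of its probe sets. Tgfbr2 had -0.00148 with cyclic loess and -0.12 to 0.15 with an array left out. The other left-out ranges that crossed 0 were -0.0347 to 0.114 for Csf1, -0.31 to 0.10 for Il1r1, -0.0976 to 0.0428 for Il1rap, -0.0220 to 0.135 for Ltbr, -0.0297 to 0.239 for Tgfbr1, -0.15 to 0.23 for Tgfbr3, -0.0678 to 0.129 for Osmr, -0.14 to 0.10 for Csf2rb and -0.251 to 0.0170 for Tifab.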

Other observations

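The genes of the C1q complement protein, 3 subunits made together by tissue macrophages, did not share a direction. C1qa read 4.97, 4.91 and 4.91 in Tifab_WT and 5.16, 5.53 and 5.66 in Tifab_KO, while C1qb read 5.08, 5.40 and 5.31 in Tifab_WT and 4.65, 4.78 and 4.84 in Tifab_KO. Neither gene's groups overlapped, and the log2 fold changes were 0.52 ± 0.17 (SE; limma adjusted p = 0.385) and -0.51 ± 0.16 (SE; limma adjusted p = 0.364). C1qc was not above the floor and had -0.20 ± 0.25 (SE). These genes were singled out after their values were seen, and the difference between C1qa and C1qb was not tested.

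Among the eosinophil genes, Prg2 read 9.62, 8.87 and 9.23 in Tifab_WT and 6.44, 9.65 and 6.38 in Tifab_KO, so Tifab_KO replicate 2 was as high as the Tifab_WT samples and the remaining Tifab_KO samples were far lower. Epx followed the same samples, with 4.43, 5.80 and 4.42 in Tifab_KO. Siglecf, a further eosinophil marker above the floor, did not. It read 4.74, 4.25 and 4.67 in Tifab_WT and 4.86, 4.77 and 4.72 in Tifab_KO, a log2 fold change of 0.23 ± 0.18 (SE). The log2 fold change of Prg2 was -1.75 ± 0.73 (SE), or -2.83 without Tifab_KO replicate 2. In that fit it had a limma adjusted p of 0.0177. In Il1b, Tifab_KO replicate 2 was also the highest of its group, at 4.46, but unlike in Prg2 it lay below every Tifab_WT sample. The part of eosinophils in these values was not tested.

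Of the 12 measured stem and progenitor markers, 9 were higher and 3 lower in Tifab_KO, with a median log2 fold change of 0.06. Those with an unadjusted p under 0.05 in limma were 2 higher and 1 lower, against 4.74% and 5.51% of all genes. Meis1 and Mycn, transcription factor genes of stem and progenitor cells, had 0.39 ± 0.13 (SE) and 0.48 ± 0.15 (SE). Hlf, a further one, had -0.33 ± 0.13 (SE). The groups did not overlap for these 3 of the 12, against 16.1% of all genes.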
